A study of Homo sapiens with 4 samples.

Results

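Cadherins and protocadherins are membrane proteins whose outer repeats bind each other between cells in the presence of calcium. The group was taken as every gene whose annotated symbol is CDH followed by a number, or PCDH followed by letters and digits. It held 32 of the 14006 genes with a named probe on the array, measured by 33 probes. The study hybridised RNA of 4 cultures, from 2 human prostate cancer lines, to 1 array each without replicates. LNCaP-AI is labelled as an androgen-independent derivative of LNCaP, a line from a lymph node metastasis, obtained by culture in charcoal-stripped serum; its description also names medium conditioned by perineural cells. The LNCaP array came from the androgen-dependent parent culture. PC3-L and PC3-H were cells of PC3, which grows without androgen and was derived from a metastasis in bone, separated with the antibody IIH6C4 into cells low and high for the laminin-binding glycan. LNCaP-AI carried the low glycan label and LNCaP the high one, and the low-glycan cultures were labelled high for motility and invasion.

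The measured members do not bear out the name "classical cadherins". Of the 5 type I classical cadherins looked for, which include the epithelial gene CDH1 and the neural and mesenchymal gene CDH2, 0 had a named probe, and likewise 0 of 13 type II cadherins; they are not analysed here. The members were 2 CDH genes outside those types, 12 protocadherins that stand alone in the genome, and 18 genes of the protocadherin beta cluster (PCDHB), of which 16 encode proteins and 2 are pseudogenes. No PCDHA or PCDHG gene was among them. The Y-linked member PCDH11Y is counted and given no value, so all counts below are over 31 members, 18 PCDHB and 13 others.

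Labels and data disagreed in ways that touch each comparison. The LNCaP line markers KLK3, FOLH1 and KLK2 summed to 135 on the array labelled LNCaP-AI, against 3047 on LNCaP, 130 on PC3-L and 130 on PC3-H. Across all probes that array correlated at r = 0.961 with PC3-L and at r = 0.885 with LNCaP, so it goes against its line label, and it is named by that label only, as the array labelled LNCaP-AI. The free-text descriptions give PC3-L and PC3-H the opposite glycan level from titles and source names, which were followed; every sign of that pair would turn under the other reading. The LNCaP description likewise calls that culture androgen-independent and moderate for the glycan, against its other labels. Intensities are linear, with array medians between 39.8 and 41.2, and each array's own 40th percentile, between 33.6 and 34.8, is used below as the level under which a gene is called dim.

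The PCDHB genes lie in a row on chromosome 5, between the protocadherin alpha and gamma clusters, and each is a single-exon gene with its own promoter. In neurons each cell uses a varying subset of the clustered genes, whose products recognise the same isoform on a neighbouring cell. Most clustered promoters share a conserved element that the insulator protein CTCF binds together with cohesin, and DNA methylation silences them over long stretches in several tumour types. The beta genes are close copies of each other. Probe sequences were not used here, so how far one gene's transcript is read by another's probe was not tested, and each PCDHB value below is uncertain to that extent.

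The promoters are shown because the members that differed sit beside each other and because their promoters share a run of letters. RefSeq promoter windows (GRCh38.p14), running from 250 bases before to 50 bases after the gene start, matched 14 of the 18 PCDHB genes. PCDHB6, PCDHB11, PCDHB18P and PCDHB19P had no window, so whether they carry the motif described next is not known here. A link between the motif and the signal was not tested. The motif GGTGGCGCT was chosen after reading these windows, and was searched on both strands. It stood on the gene's own strand in 13 of the 14, starting between 2 and 84 bases before the gene start. It was found in 176 of all 35116 promoter windows (0.501%), in 0 of the 15 windows of 11 other members and in 0 of 38 windows of the alpha and gamma genes. Whether it belongs to the element that CTCF binds was not tested. In PCDHB1 the closest stretch has 1 mismatch, C6T, counted from 1 at the motif's 5′ end. The 30 bases around the motif, or around that closest stretch in PCDHB1, are given 5′ to 3′ on the plus strand, with the 9 matched positions in capitals. They are ordered by how far the array labelled LNCaP-AI stood above the highest of the other 3 arrays.
PCDHB10, chr5:141192300-141192329: gaggccacacGGTGGCGCTgcaggctaaag
PCDHB16, chr5:141182311-141182340: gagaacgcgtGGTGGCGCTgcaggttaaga
PCDHB14, chr5:141223264-141223293: ggagacacatGGTGGCGCTacaggataaga
PCDHB5, chr5:141135180-141135209: taggacgcctGGTGGCGCTgcaggctaaga
PCDHB12, chr5:141208644-141208673: ggagacgcgtGGTGGCGCTgcaggataata
PCDHB15, chr5:141245315-141245344: gacaacgcatGGTGGCGCTgcaggctaagg
PCDHB8, chr5:141177778-141177807: gaggacccgtGGTGGCGCTgcaggataaga
PCDHB2, chr5:141094545-141094574: agagacgcggGGTGGCGCTgcagccttaga
PCDHB13, chr5:141213866-141213895: gaggacgcgtGGTGGCGCTgcaggataaga
PCDHB9, chr5:141187075-141187104: gaagccacaaGGTGGCGCTgcagactgaag
PCDHB3, chr5:141100394-141100423: gcgaacgcatGGTGGCGCTgttgactaaga
PCDHB4, chr5:141121724-141121753: caagacgcagGGTGGCGCTgcaggctaagt
PCDHB7, chr5:141172567-141172596: caaaacgcaaGGTGGCGCTgctggctaaaa
PCDHB1, chr5:141051338-141051367: gctagcctttGGTGGTGCTgcagttagagg
The last 4 genes listed differed by under 2-fold on all arrays, and 3 of those 4 carry the motif in full. Whole windows follow for the gene with the highest such ratio (PCDHB10), for one with the motif and little difference (PCDHB7) and for the one without the motif (PCDHB1), marked in the same way.
PCDHB10 promoter window, chr5:141192103-141192402: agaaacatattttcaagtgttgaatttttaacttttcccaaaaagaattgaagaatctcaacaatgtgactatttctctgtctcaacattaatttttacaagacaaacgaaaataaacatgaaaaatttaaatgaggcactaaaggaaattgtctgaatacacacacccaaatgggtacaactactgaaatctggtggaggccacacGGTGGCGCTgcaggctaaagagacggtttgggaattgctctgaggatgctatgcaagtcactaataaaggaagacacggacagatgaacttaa
PCDHB7 promoter window, chr5:141172394-141172693: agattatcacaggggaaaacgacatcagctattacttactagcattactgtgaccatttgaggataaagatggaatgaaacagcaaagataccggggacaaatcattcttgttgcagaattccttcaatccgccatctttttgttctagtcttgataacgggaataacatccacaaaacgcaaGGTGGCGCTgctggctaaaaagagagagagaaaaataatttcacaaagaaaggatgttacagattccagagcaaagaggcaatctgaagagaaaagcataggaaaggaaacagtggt
PCDHB1 promoter window, chr5:141051124-141051423: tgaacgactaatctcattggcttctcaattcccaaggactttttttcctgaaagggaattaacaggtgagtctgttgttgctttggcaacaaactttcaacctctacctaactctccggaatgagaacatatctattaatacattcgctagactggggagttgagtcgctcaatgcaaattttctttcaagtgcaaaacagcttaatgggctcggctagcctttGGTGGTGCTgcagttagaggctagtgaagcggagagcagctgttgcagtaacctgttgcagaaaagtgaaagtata

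The PCDHB genes were highest as a group on the array labelled LNCaP-AI. That array was the highest of the 4 for 17 of 18 PCDHB genes, where it was the highest for 20.3% of all 14006 genes. For 13 of the 18 it stood at least 2-fold above each of the other 3 arrays, where 0.307% of all genes did. The count was 12 after median centring or quantile normalization and 9 with a pseudocount of 16. None of the 13 other members did so, which is near the 0.307% over all genes. No other array stood 2-fold above the rest for any PCDHB gene, and the share of all genes for those arrays was not counted. On PC3-L, PC3-H and LNCaP only 6, 3 and 3 of the 18 PCDHB genes reached the 40th percentile. All of these counts rest on ratios between single arrays, with no replicate check and no p-value.

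**Figure D1:**
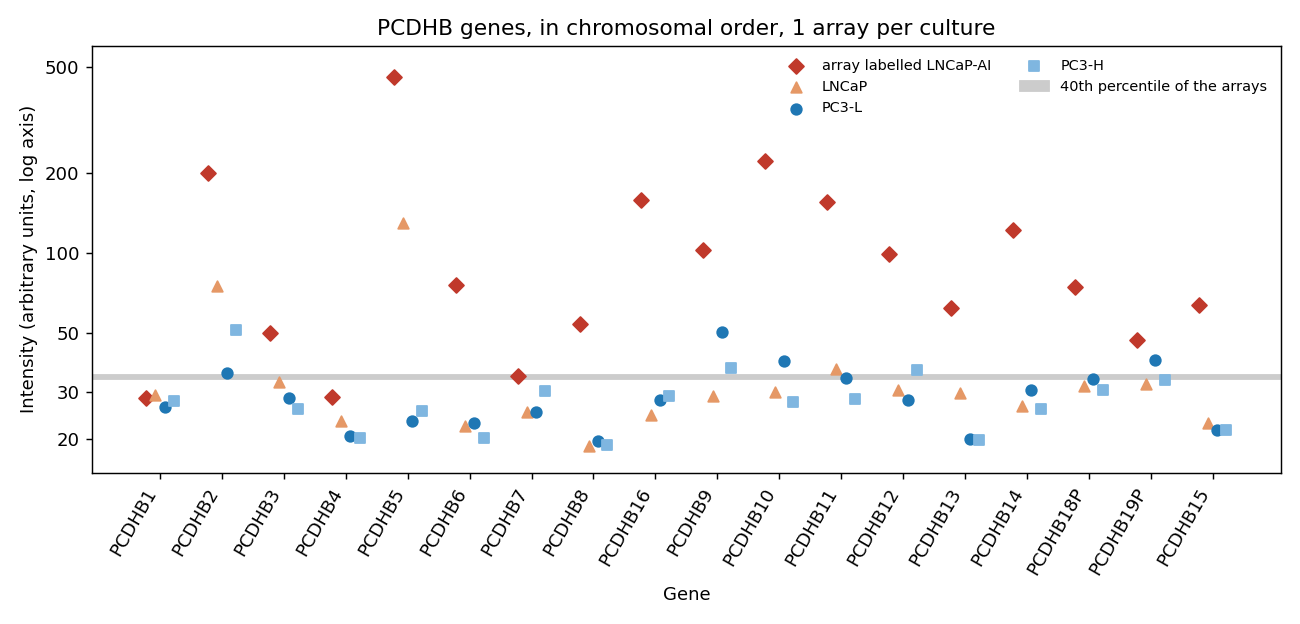
Intensity (arbitrary units, log axis) of the 18 PCDHB genes in chromosomal order, with 1 point per array and a grey band for the 40th percentiles of the 4 arrays. The array labelled LNCaP-AI is the highest point for 17 genes, and the exception is PCDHB1.

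PCDHB10 had an intensity of 222 on the array labelled LNCaP-AI, against 39.4 on PC3-L, 27.6 on PC3-H and 30.2 on LNCaP. It was 5.52-fold above the next array on the log2(intensity + 1) scale used for all ratios here, the highest such ratio of all 14006 genes. PCDHB16 followed, at 158 on the array labelled LNCaP-AI against 28.0, 29.1 and 24.7 on PC3-L, PC3-H and LNCaP, 5.28-fold above the next. On the other 3 arrays both genes lay near or under the level called dim, and adding 1 before the log understates the ratio of a dim gene.

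PCDHB11 and PCDHB14, further along the row, were likewise highest on the array labelled LNCaP-AI, with somewhat smaller ratios. PCDHB11 was 156 on the array labelled LNCaP-AI, against 33.9 on PC3-L, 28.4 on PC3-H and 36.9 on LNCaP. PCDHB14 was 122 there, against 30.7, 26.0 and 26.6 on the same 3 arrays. Their ratios to the next array were 4.15-fold and 3.89-fold.

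Of the PCDHB genes only PCDHB5 and PCDHB2 were past 2-fold higher on LNCaP than on PC3-L. PCDHB5 was so at 5.34-fold, while PCDHB2 was just past the line at 2.08-fold and was 1.45-fold higher on LNCaP than on PC3-H. PCDHB5 was 458 on the array labelled LNCaP-AI and 130 on LNCaP, against 23.5 on PC3-L and 25.5 on PC3-H. It was thus 3.51-fold higher than on LNCaP and 18.7-fold higher than on PC3-L. PCDHB2 was 200 on the array labelled LNCaP-AI, 75.1 on LNCaP, 35.5 on PC3-L and 51.6 on PC3-H, with ratios of 2.64-fold to LNCaP and 5.50-fold to PC3-L. For the other 16 PCDHB genes, PC3-L, PC3-H and LNCaP stayed within 2-fold of each other. The share of all genes that did so was not counted. The median range over these 3 arrays was 0.27 on the log2 scale for the 18 PCDHB genes and 0.39 for all genes. Only 6, 3 and 3 of the 18 reached the 40th percentile on PC3-L, PC3-H and LNCaP, and a difference among dim genes was not detectable. LNCaP was past 2-fold above PC3-H for 1 PCDHB gene, PCDHB5, and below it for 0, where 5.46% of genes past the filter were higher and 4.49% lower (4.35% and 3.58% of all genes). LNCaP was past 2-fold above PC3-L for 2, PCDHB5 and PCDHB2, and below it for 0, where 4.51% of genes past the filter were higher and 7.23% lower (3.58% and 5.74% of all genes). On LNCaP the PCDHB5 probe read 4.94-fold above PC3-H while the probes beside it in the row, PCDHB4 and PCDHB6, read 1.15-fold and 1.10-fold above it.

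A further 7 genes were between 2.02-fold and 3.20-fold above the next array. PCDHB6 was 76.0 on the array labelled LNCaP-AI, against 23.0 on PC3-L, 20.2 on PC3-H and 22.4 on LNCaP, and PCDHB15 was 63.8 against 21.7, 21.7 and 23.1. PCDHB8 was 54.4 there, against 19.7, 19.0 and 18.9. These 3 were near the bottom of the range on the other arrays, whose lowest single values lay between 17.6 and 17.9.

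PCDHB12 was 99.6 on the array labelled LNCaP-AI, against 28.0, 36.3 and 30.7 on PC3-L, PC3-H and LNCaP. PCDHB13 was 62.3 there, against 20.1, 19.8 and 29.8. The pseudogene PCDHB18P was 74.8, against 33.6, 30.8 and 31.7, at 2.19-fold above the next array; with a pseudocount of 16 its log2 difference to LNCaP was 0.93, short of 2-fold. PCDHB9 had the smallest ratio of the 13: it was 103 on the array labelled LNCaP-AI, against 50.5 on PC3-L, 37.1 on PC3-H and 29.1 on LNCaP, a ratio of 2.02-fold to PC3-L.

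In the remaining 5 PCDHB genes no comparison reached 2-fold. PCDHB3 was 50.2 on the array labelled LNCaP-AI, against 28.7, 26.1 and 33.0 on PC3-L, PC3-H and LNCaP, and the pseudogene PCDHB19P was 47.1 against 39.7, 33.5 and 32.3. PCDHB7 was 34.4 there, against 25.4, 30.3 and 25.4, and PCDHB4 was 28.9 against 20.5, 20.2 and 23.3. PCDHB1, the first gene of the row and the one whose promoter window lacks the motif, was 28.5 on the array labelled LNCaP-AI, 26.5 on PC3-L, 27.9 on PC3-H and 29.3 on LNCaP. The last 3 of these were dim on all 4 arrays, so a difference below the floor could not be seen.

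The study named a pair of comparisons, and one sets the LNCaP-AI label against its parent line. Of the 31 members 14 were at least 2-fold higher and 0 lower, where 5.45% of the 11136 genes past the filter were higher and 5.13% lower. PCDHB made up 13 of the 14, and the other was PCDH7. The median log2 difference of the 18 PCDHB genes was 1.45, from −0.04 (PCDHB1) to 2.84 (PCDHB10), against 0.05 for the 13 other members and 0.00 for all genes past the filter. The filter, by which the higher array of a pair had to reach its 40th percentile, was passed by 15 PCDHB genes, while on LNCaP itself 3 reached that level; the counts are therefore over all members, and without a filter they were also 14 and 0, where 4.33% and 4.08% of all genes passed. PCDHB13 was just past 2-fold (2.06-fold; 0.77 on the log2 scale, short of 2-fold, with a pseudocount of 16) and PCDH18 just short of it (1.94-fold).

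When the array labelled LNCaP-AI is set against PC3-L, the array it otherwise resembled most, the PCDHB genes differed by similar amounts. Here 13 of 31 members were at least 2-fold higher, all of them PCDHB, and 0 lower, where 0.831% of the 10956 genes past the filter were higher and 1.95% lower. All 18 PCDHB genes had a positive difference, with a median of 1.55 on the log2 scale against 0.07 for the 13 other members and 0.01 for all genes past the filter. Without a filter, 0.65% of all genes were higher and 1.53% lower. Against PC3-H, 13 PCDHB genes and PCDH7 were past 2-fold higher and 0 members lower, where 3.98% and 3.35% of genes past the filter were (3.16% and 2.66% of all genes). These comparisons share the array labelled LNCaP-AI and are not independent of each other.

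**Figure D2:**
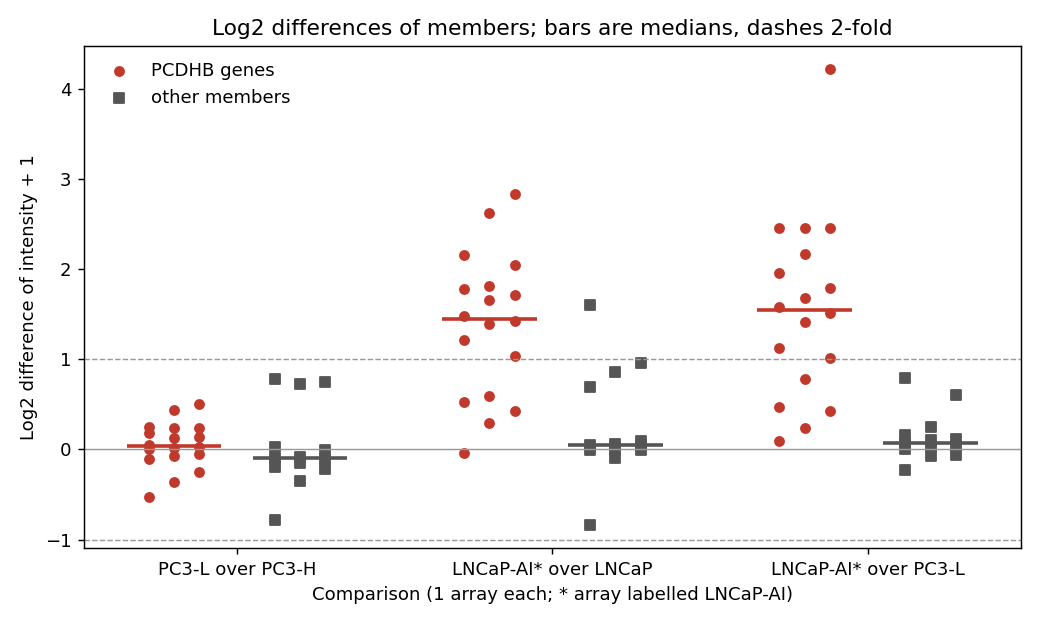
Log2 differences of intensity + 1 for the 18 PCDHB genes (red circles) and 13 other members (grey squares) in 3 comparisons of single arrays, with bars at the medians and dashed lines at 2-fold. The PCDHB medians are 1.45 and 1.55 in the comparisons with the array labelled LNCaP-AI on top, and 0.04 for PC3-L over PC3-H.

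The other comparison the study named sets the PC3 cells low for the glycan against those high for it. Here 0 members were past 2-fold in either direction, where 8.58% of the 11135 genes past the filter were higher on PC3-L and 3.76% lower (6.82% and 2.99% of all genes). The PCDHB genes lay between −0.53 (PCDHB2) and 0.50 (PCDHB10) on the log2 scale, with a median of 0.04 against −0.02 for all genes past the filter. Their highest intensity on the PC3-L array was 50.5 and on PC3-H 51.6, with 12 and 15 of the 18 genes dim. A difference among dim genes was not detectable at this signal.

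The genes on either side of the PCDHB row mostly did not share its difference. In the LNCaP pair 4.33% of all genes were past 2-fold higher and 4.08% lower. Of the 10 genes with a named probe before the row, 1 was past 2-fold higher in that pair and 1 lower. For the 10 after it the counts were 0 and 0, so the neighbours were near the shares over all genes. The 1 higher was VTRNA1-1, a vault RNA gene, at 150 on the array labelled LNCaP-AI against 56.1 on LNCaP and 66.0 on PC3-L. Another vault RNA gene of the same group, VTRNA1-3, was the 1 lower, at 135 against 388 on LNCaP. SLC25A2, the first measured gene after the row, was 51.4 on the array labelled LNCaP-AI, 51.9 on LNCaP and 46.6 on PC3-L. The neighbours were chosen by position after the PCDHB values were known. Expression of the alpha and gamma clusters on either side was not analysed here.

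**Figure D3:**
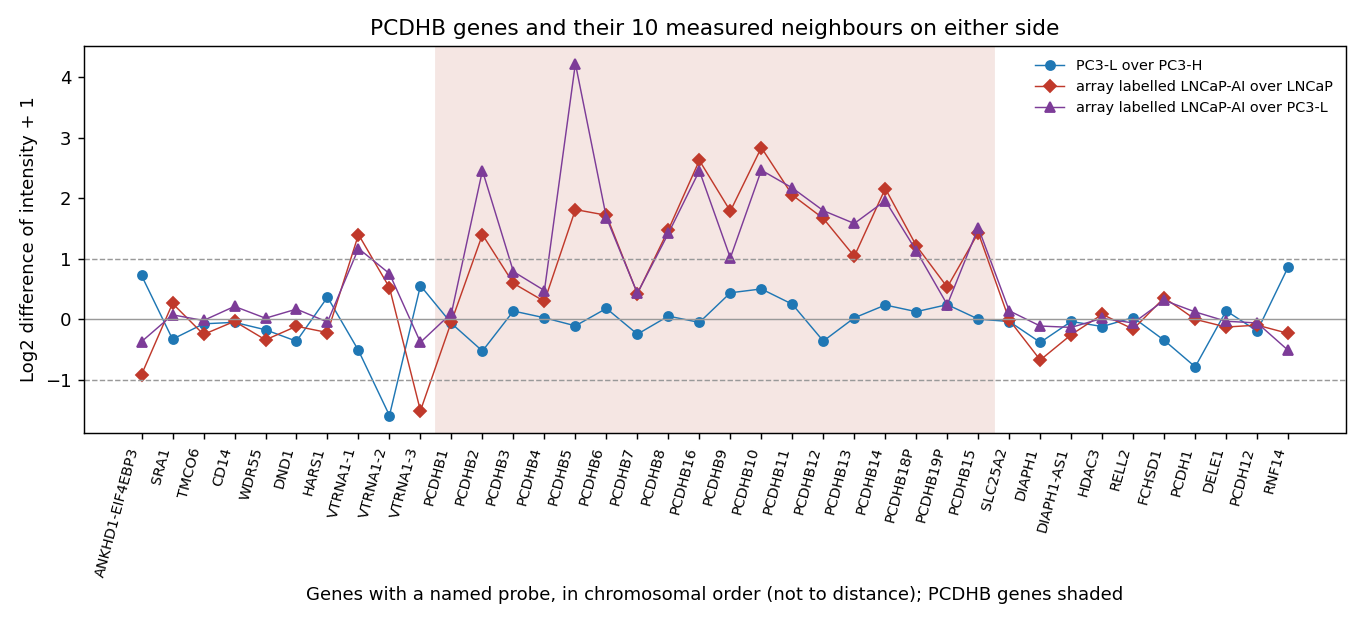
Log2 differences of intensity + 1 for the PCDHB genes (shaded) and the 10 genes with a named probe on either side, in chromosomal order and not to distance, for 3 comparisons of single arrays; dashed lines mark 2-fold. Both lines with the array labelled LNCaP-AI on top lie past 2-fold at 13 of the 18 shaded genes, and the line for PC3-L over PC3-H stays within 2-fold at all 18.

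Among the 13 other members, PCDH7, a delta-1 protocadherin known to aid the growth of brain metastases, had the widest range. It was 101 on the array labelled LNCaP-AI and 32.5 on LNCaP (3.04-fold), and 65.9 on PC3-L and 38.7 on PC3-H (1.68-fold). It was higher on the array labelled LNCaP-AI and on PC3-L than on either high-glycan array. PCDH10, a delta-2 protocadherin often silenced by methylation in carcinomas, was 65.8 on the array labelled LNCaP-AI and 35.7 on LNCaP, and 64.2 on PC3-L and 37.0 on PC3-H. PCDH9, another delta-1 gene, was 37.3 and 22.6 in the LNCaP pair and 43.9 and 26.1 in the PC3 pair. In both genes the 2 low-glycan arrays lay above the 2 high-glycan arrays without overlap, at ratios under 2-fold in each pair. How many of all genes split in this way, as PCDH7 also did, was not counted. The looser condition, higher with the low glycan label in both pairs, held for 24% of all 14006 genes. Whether the split follows the glycan label or the likeness of the array labelled LNCaP-AI to PC3-L was not tested. The low glycan label falls on those same 2 arrays, so the label and the likeness cannot be told apart here.

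PCDH18, a delta-2 protocadherin, followed the PCDHB pattern at a smaller ratio: it was 51.4 on the array labelled LNCaP-AI, against 29.2 on PC3-L, 28.6 on PC3-H and 26.0 on LNCaP. PCDH1, a delta-1 protocadherin of epithelia, was 44.4 on the array labelled LNCaP-AI, 40.8 on PC3-L, 71.1 on PC3-H and 44.5 on LNCaP, and was thus highest on PC3-H. CDH26, an atypical cadherin of epithelia, was 38.0 on the array labelled LNCaP-AI, 35.4 on PC3-L, 41.2 on PC3-H and 69.1 on LNCaP, and was thus highest on LNCaP. None of these 3 reached 2-fold in either labelled pair.

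The rest were flat or dim. PCDH17 was 50.9 on the array labelled LNCaP-AI, 47.5 on LNCaP, 42.8 on PC3-L and 54.6 on PC3-H; it was the one member with several probes, and its dimmer probe had log2 differences of 0.19 and 0.03 in the LNCaP and PC3 pairs where the brighter had 0.10 and −0.35. PCDH8 and CDH23, a tip-link cadherin of the inner ear, stayed within 1.06-fold in both labelled pairs. The endothelial gene PCDH12, the tip-link gene PCDH15, PCDH19 and PCDH20 were under 35 on all 4 arrays.

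**Figure D4:**
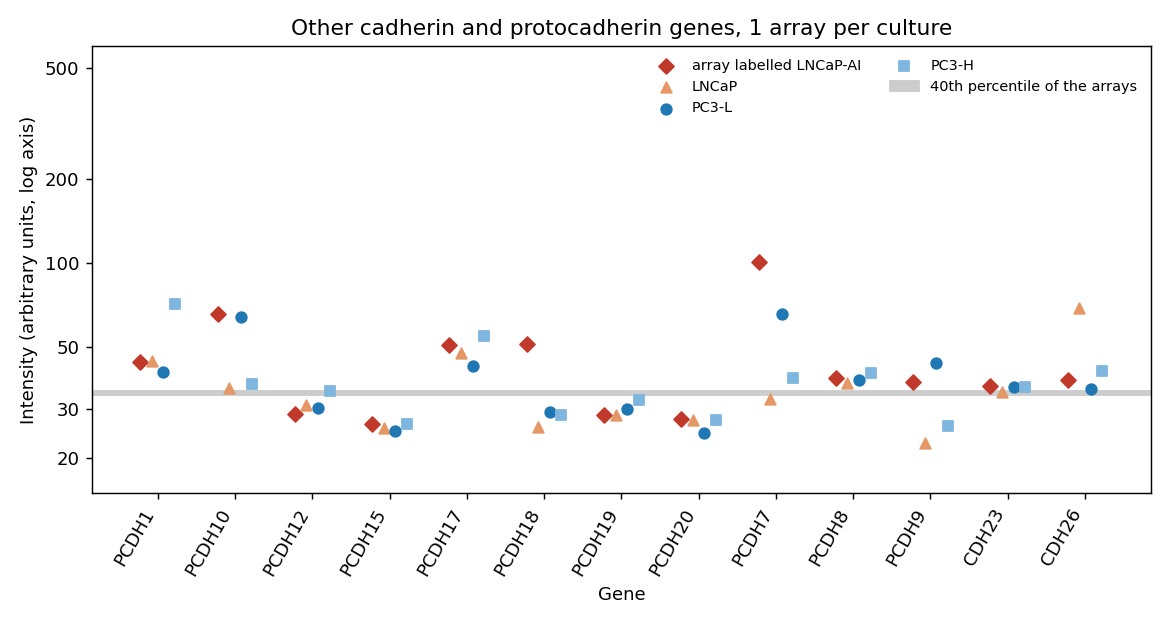
Intensity (arbitrary units, log axis) of the 13 members outside the PCDHB row, with 1 point per array and a grey band for the 40th percentiles; the Y-linked member is not plotted. PCDH7, at 101 on the array labelled LNCaP-AI, is the brightest point.

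With the low glycan label, 16 of the 31 members were higher in both pairs, 5 were lower in both, and 0 were past 2-fold higher in both, where 24%, 27% and 1.69% of all 14006 genes were. Of the 18 PCDHB genes 12 were higher in both and 1 lower, and of the 13 other members 4 were higher and 4 lower. In the PC3 pair the PCDHB median was only 0.04 on the log2 scale and 7 of the 18 passed the filter, so many of those signs rest on differences near 0. The label was tested over all 4 arrays by limma, adjusting for the labelled line, with 1 residual degree of freedom and Benjamini-Hochberg adjustment over 11509 genes. By limma 0 genes (0%) had an adjusted p below 0.05, and 1014 had an unadjusted p below 0.05. Without a filter the limma fit gave an unadjusted p below 0.05 for 3 of 31 members and 1135 of 14006 genes. PCDH7 had the smallest limma adjusted p of the members, 0.399, at a log2 difference of 1.18 with the low array higher in 2 of 2 pairs. The line covariate follows the labels, which the array labelled LNCaP-AI goes against.

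Genes that work with cadherins were read from lists in both pairs. Of all genes past the filter, 8.58% were at least 2-fold higher and 3.76% lower in the PC3 pair. In the LNCaP pair the shares were 5.45% and 5.13%, to be set beside the list counts here and below. JUP, which encodes plakoglobin, the catenin that links cadherins of desmosomes and adherens junctions to the cytoskeleton, read 54.9 on PC3-L against 320 on PC3-H, and 59.4 on the array labelled LNCaP-AI against 375 on LNCaP. It was the 1 of 5 measured catenins and adaptors past 2-fold, lower in both pairs, while the list median was −0.17 for PC3-L over PC3-H and −0.29 for the LNCaP pair. The other 4 were ARVCF, PKP4, VCL and LIMA1. CTNNB1, CTNNA1 and CTNND1 were not analysed here.

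Of 17 measured repressors of CDH1 and factors that maintain epithelial identity, 3 were higher and 3 lower by 2-fold or more in each pair; list medians were −0.07 for PC3-L over PC3-H and 0.02 for the LNCaP pair. The repressor SNAI2 read 634 on PC3-L against 93.5 on PC3-H, and 468 on the array labelled LNCaP-AI against 57.6 on LNCaP. The E protein TCF4 was 435 against 60.9 and 184 against 53.6 in the same order. Lower in both pairs were ESRP1, an epithelial splicing regulator, at 25.4 on PC3-L against 216 on PC3-H and 30.2 on the array labelled LNCaP-AI against 167 on LNCaP, and GRHL2, an activator of CDH1, at 29.3 against 129 and 32.8 against 287. ZEB1 was the third gene higher and ESRP2 the third gene lower, in both pairs.

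Of 20 other cadherin superfamily genes, 3 were higher and 0 lower in the PC3 pair, and 2 higher and 2 lower in the LNCaP pair, with list medians of −0.03 and −0.06. The giant cadherin FAT1 read 1026 on PC3-L against 113 on PC3-H, and 585 on the array labelled LNCaP-AI against 166 on LNCaP. FAT4, which signals to the Hippo pathway, was 163 against 34.4 and 148 against 30.5. The desmosomal cadherin DSC3 read 242 on PC3-L against 56.1 on PC3-H, but 27.1 on the array labelled LNCaP-AI against 33.0 on LNCaP. DSC2 was 7.02-fold lower in the LNCaP pair and DSG2 2.35-fold lower. Of 5 nectins, adhesion molecules that assemble junctions with cadherins, 1 was past 2-fold, NECTIN3, 2.41-fold higher in the PC3 pair and 4.28-fold higher in the LNCaP pair.

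A further list held proteases that cut cadherins, gamma-secretase subunits, and FURIN, PCSK5, PCSK6 and BACE1. Of its 14 measured genes 3 were higher and 1 lower in the PC3 pair. In the LNCaP pair 1 was higher and 1 lower, and the list medians were 0.04 and −0.17 in that order. ADAM9 was 2.73-fold, ADAM10 2.11-fold and ADAM17 3.19-fold higher on PC3-L than on PC3-H, and ADAM15 was 4.69-fold lower. ADAM10 is the main sheddase of CDH1. In the LNCaP pair MMP14 was 508 on the array labelled LNCaP-AI against 23.2 on LNCaP, and ADAM15 was 2.36-fold lower.

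Regulators of the clustered protocadherins were read beside the PCDHB result. Of 13 measured, 0 were past 2-fold between the array labelled LNCaP-AI and PC3-L, with a median log2 difference of −0.23. Among all genes past the filter 0.831% were higher and 1.95% lower there, so a count of 0 of 13 is near the share over all genes. A role of these regulators was not tested. CTCF, named after its values were seen, was 464 on the array labelled LNCaP-AI, 467 on PC3-L, 312 on PC3-H and 439 on LNCaP. Against LNCaP the cohesin subunit STAG2 was 4.85-fold lower on the array labelled LNCaP-AI (52.8 against 260) and STAG1, its paralog, 2.40-fold higher (157 against 65.0). In the PC3 pair SMC3, NIPBL and STAG1 were 3.19-fold, 2.90-fold and 2.46-fold higher on PC3-L, and STAG2 2.01-fold lower, which became −0.96 on the log2 scale, short of 2-fold, after median centring. Of 7 measured effectors of protocadherins, NCKAP1, of the actin-regulating WAVE complex, was 3.04-fold higher on PC3-L than on PC3-H and 2.03-fold higher in the LNCaP pair. ABI1, also of that complex, was 2.63-fold higher on PC3-L. PTK2B, a kinase that protocadherins restrain, was 2.04-fold lower in the PC3 pair, or −0.98 on the log2 scale after median centring, and 2.30-fold lower in the LNCaP pair.

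Neurons are the cells best known for the PCDHB genes, and the label of the array labelled LNCaP-AI names perineural cells, so markers of both were read beside the result. The 3 measured of 6 neuron markers, MAP2, SYP and STMN2, summed to 125 on the array labelled LNCaP-AI, 110 on PC3-L, 126 on PC3-H and 122 on LNCaP, with 0 past 2-fold in any of these comparisons. Of Schwann and perineurial markers 3 of 6 were measured and summed to 140 on that array, 125 on PC3-L, 174 on PC3-H and 269 on LNCaP. SOX10 was 60.8, 58.3, 60.4 and 54.2 in that order. S100B was 38.1, 28.1, 33.1 and 27.5, and was thus highest on the array labelled LNCaP-AI, at under 2-fold. ERBB3, on that list, was 40.6 on the array labelled LNCaP-AI against 188 on LNCaP, and 38.1 on PC3-L against 80.8 on PC3-H. The leukocyte marker CD68, also found in many tumour cells, was 553 on the array labelled LNCaP-AI against 102 on LNCaP, and 630 on PC3-L against 290 on PC3-H; the part of either gene's cells in the results was not tested. Fibroblast markers (2 of 6 measured) summed to between 67.3 and 76.1 and endothelial markers (4 of 6) to between 170 and 198 on the 4 arrays. In bulk RNA of a culture, more cells that use a gene and more RNA per cell cannot be told apart.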

How the data were processed

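Total RNA from 4 cultures was hybridised to Affymetrix whole-transcript arrays after biotin labelling, per the labels' protocols. The deposited table holds each probe's intensity, not log-transformed, from 17.6 to 11188. The series' design text names GeneSpring GX 12.6; probe summary, background correction and normalization are not given in the sources used here. Of 37934 probes 14952 had 1 gene symbol and 22982 none; all 14952 matched the RefSeq gene table (GRCh38.p14) by Entrez identifier. The probe with the highest mean stood for its gene. A pseudocount of 1 was added before log2. In each pair a gene was called at 2-fold or more, with the higher array at or above its 40th percentile over all probes. The low and high glycan labels were compared with limma 3.58.1 (R 4.3.3). Scripts were tested on simulated data. With 1 array per group, array number limits the precision.

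Members and gene lists were chosen with earlier results of these data known. Genes named were the members past 2-fold in either labelled pair, type I cadherins, the 3 brightest members of each array, those nearest to 2-fold, and up to 3 genes past 2-fold per list and pair; other names were added after their values were seen. Leukocyte and line markers served as checks: of 3 leukocyte genes 1, CD68, was past 2-fold higher in both pairs, and PC3 line markers were higher in 3 of 5 and 5 of 5. Alternatives were other pseudocounts, filters, normalizations, probe rules and thresholds, and PC3-L in place of the array labelled LNCaP-AI.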

Additional observations from a re-analysis of the deposited data

Results flagged for a closer look

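The effect of the low glycan label had opposite signs in the LNCaP pair and the PC3 pair for 10 of the 31 members. The same held for 17 other genes named. Opposite signs were common in the series: of all 14006 genes only 24% were higher in both pairs and 27% lower in both. Of the 31 members 16 were higher in both, 12 of them PCDHB, and 5 lower in both, 1 of them PCDHB. With 1 array per group the difference between the pairs was not tested. The figure given is the log2 difference in the LNCaP pair minus that in the PC3 pair. Among members past 2-fold in the LNCaP pair it was 2.68 for PCDHB16, 2.03 for PCDHB12, 1.93 for PCDHB2 and 1.92 for PCDHB5, with PC3 pair values of −0.05, −0.36, −0.53 and −0.11. The other 6 members were within 2-fold in both pairs, at 0.67 for PCDHB7, 0.44 for PCDH17, 0.16 for PCDH20, 0.14 for PCDH8, 0.12 for PCDH15 and 0.067 for CDH23.

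Among genes of the cadherin lists it was −2.36 for DSC3, −1.97 for DSG2, −1.80 for ADAM9, −1.45 for ADAM10, −0.96 for PKP4, −0.85 for LIMA1 and 1.46 for VCL. Among marker genes it was −4.94 for the LNCaP marker KLK3, 0.78 for MAP2 and 0.21 for SOX10. For the vault RNA genes before the PCDHB row it was 1.92 for VTRNA1-1 and −2.07 for VTRNA1-3. For genes outside the family that were at least 2-fold above every other array under the LNCaP-AI label, the figure was 3.86 for SIRPB1, 2.91 for SERTAD4, 2.22 for HNMT, 1.99 for MGP and 1.65 for VIPR1.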

How the results depend on the processing

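The count of 13 PCDHB genes past 2-fold against LNCaP, and against PC3-L, stayed within 1.5 times its value under each other pseudocount, filter, normalization, probe rule and threshold run. The 13 PCDHB genes past 2-fold above each other array became 12 after either normalization, 9 with a pseudocount of 16 and 14 at 1.5-fold. With PC3-L in place of the array labelled LNCaP-AI, 0 members were higher than on LNCaP and 2 lower, both of them PCDHB, and the medians were −0.0051 for members and −0.045 for PCDHB, opposite in sign to 0.86 and 1.45. With a pseudocount of 16 the medians against LNCaP were 0.66 for members and 1.14 for PCDHB, and 1.10 for PCDHB against PC3-L; a larger pseudocount shrinks differences of dim genes by construction. At 1.5-fold, 3 members were higher and 1 lower in the PC3 pair, 1 was lower in the LNCaP pair, and 123 genes, against 43 at 2-fold, stood above all other arrays on the array labelled LNCaP-AI. The limma count was 1 gene with a 60th percentile filter, and between 0 and 280 when 1 array was left out without a covariate (71 without LNCaP, 280 without PC3-H); members called were 0 in all of these fits, and the cause was not tested. Of 686 values of named genes under 7 alternatives, 679 kept their side of 2-fold and 0 turned sign past it. Part of that agreement was fixed in advance. Changing the filter cannot move a log2 difference, and averaging probes moves it only for genes with several probes. STAG2 and PTK2B were under 2-fold in the PC3 pair after median centring and, with ERBB3, with a pseudocount of 16. PCDHB13 and PCDHB18P were under 2-fold against LNCaP with a pseudocount of 16. No paired analysis was possible because each group has 1 array and so no replicate numbers to pair; the limma fit adjusted for the labelled line, and its alternative without that covariate also called 0 genes (1261 at an unadjusted p below 0.05). Dim genes, most PCDHB genes on 3 arrays, limit what can be seen.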

Other observations

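On the array labelled LNCaP-AI 43 of 14006 genes stood at least 2-fold above each of the other 3 arrays. PCDHB genes were 13 of these 43 (30.2% of them, and 72.2% of the PCDHB genes) and 10 of the 20 with the largest ratios. The other 10 of those 20, named after their values were seen, were SERTAD4, VCAN, SIRPB1, SIRPD, FZD1, MGP, CD96, ADGRL3, VIPR1 and HNMT. The proteoglycan VCAN was 1067 on the array labelled LNCaP-AI, against 249 on PC3-L, 48.0 on PC3-H and 27.2 on LNCaP. SIRPB1 and SIRPD, a pair of signal-regulatory protein genes on chromosome 20, were 358 and 119 there, against 60.3 and 35.9 on PC3-L, 100.2 and 31.6 on PC3-H, and 39.7 and 29.0 on LNCaP. The Wnt receptor FZD1 was 211 on the array labelled LNCaP-AI, against 58.3, 35.2 and 65.9 on PC3-L, PC3-H and LNCaP. MGP, which encodes an inhibitor of matrix calcification, was 75.2 against 20.1, 24.1 and 21.9. ADGRL3, an adhesion receptor known from neurons, was 190 against 68.1, 26.1 and 29.0.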
